A study of Mus musculus with 3 samples.

Results

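Genes of voltage-gated and other ion channels were examined in the CA1 field of the mouse hippocampus 6 h after contextual fear conditioning. They were chosen by symbol, as the probe sets naming a single gene whose symbol starts with Kcn, Cacna, Cacnb, Cacng, Clcn, Trpc, Trpv or Trpm, or with Hcn or Scn followed by a digit. This gave 97 probe sets of 76 genes, out of 12422 probe sets of 8251 named genes on the array. The mouse gene table used for naming holds 170 protein-coding genes with such symbols, so the array covered a part of them, and the others are not analysed here.

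The samples were 3 arrays of total RNA, all from young male mice of the inbred strain C57BL/6J. These animals were placed in a new context for 2 min and then given a foot shock of 1 s at 0.5 mA, and this was repeated to a total of 3 shocks. They were returned home 1 min after the final shock. All 3 arrays belong to this 1 group, with no genetic change and no control animals, so levels and the spread between arrays can be given but no effect of training. The labels do not say whether the arrays held RNA of separate animals or of pools, so the spread, and every p-value drawn from it, may be technical. All 4 CA1 pyramidal neuron markers with a probe set (Wfs1, Pou3f1, Dcn and Man1a) were above threshold on every array. So were 52.9% of all named genes, each taken at its brightest probe set. The same held for 3 of 4 CA3 and CA2, 2 of 3 dentate granule, 3 of 4 thalamus and 5 of 6 meningeal markers. Dissected tissue holds several cell types, and fewer cells of a type and less RNA per cell cannot be told apart. The ratio of 3' to 5' signal of Gapdh, a measure of how complete the labelled RNA was, was 3.99, 1.21 and 3.94 on arrays 1, 2 and 3, and for Actb it came to 2.57, 1.86 and 3.5. The summed signal of 6 choroid plexus and ependyma markers was 3879, 7580.2 and 2360.1 on the arrays. Of the 6, 5 were above threshold on at least 1 array, and Aqp1 was above it on none.

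Ion channels are membrane proteins that let selected ions cross when they open. Sodium channels drive the upstroke of the action potential, potassium channels repolarise the membrane and set the resting potential, and calcium channels couple electrical activity to transmitter release and gene expression. In CA1 pyramidal neurons the A-type potassium current and the hyperpolarisation-activated cation current of the dendrites are known for shaping how synaptic input is integrated, and both have been linked to learning in the hippocampus.

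RefSeq promoter windows on build GRCm38.p6, reaching from 250 bases before to 50 bases after a start site, were matched to 61 of the 76 genes, which gave 81 windows because some genes have several starts. The median GC content of the channel windows was 58.3%, against 52.7% over all 32851 windows of 300 bases in the table. It was 57.3% both for genes above threshold on all 3 arrays and for genes above it on none. The GC box GGGCGG, the site of Sp1-like factors, was found on either strand in 46.9% of channel windows and in 35.7% of all windows. The full cAMP response element TGACGTCA, the palindrome bound by CREB, was in 2 of 81 channel windows (2.47%) against 1.79% of all windows. The 2 windows belong to the chloride transporter genes Clcn3 and Clcn4, both above threshold on all arrays. The AP-1 site TGACTCA, searched on both strands, was in 1.23% of channel windows and 5.2% of all. These are counts of letters and were not tested as binding sites. The 4 stretches below are the 250 bases before a start site, 5' to 3'. The first 3 belong to genes with more than a 2-fold difference between arrays, and Clcn4 is the gene with a full cAMP response element before a start. Capitals mark GC boxes on either strand and that element.
Scn8a (chr15:100870395-100870644, plus strand): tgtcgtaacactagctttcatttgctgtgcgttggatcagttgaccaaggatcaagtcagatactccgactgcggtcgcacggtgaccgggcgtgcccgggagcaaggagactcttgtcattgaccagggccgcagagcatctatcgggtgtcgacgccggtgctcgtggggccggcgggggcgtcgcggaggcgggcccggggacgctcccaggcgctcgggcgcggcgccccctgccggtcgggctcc
Cacna2d1 (chr5:15934441-15934690, plus strand): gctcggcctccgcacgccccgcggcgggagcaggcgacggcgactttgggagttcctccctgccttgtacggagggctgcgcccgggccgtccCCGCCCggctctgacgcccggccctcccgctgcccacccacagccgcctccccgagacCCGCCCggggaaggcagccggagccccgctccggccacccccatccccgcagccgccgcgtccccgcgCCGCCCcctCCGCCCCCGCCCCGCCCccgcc
Kcnk4 (chr19:6934516-6934765, minus strand): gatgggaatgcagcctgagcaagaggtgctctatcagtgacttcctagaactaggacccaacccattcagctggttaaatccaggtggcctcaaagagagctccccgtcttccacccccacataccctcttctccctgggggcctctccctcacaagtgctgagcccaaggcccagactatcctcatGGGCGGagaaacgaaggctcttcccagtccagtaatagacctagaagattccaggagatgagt
Clcn4 (chr7:7299558-7299807, minus strand): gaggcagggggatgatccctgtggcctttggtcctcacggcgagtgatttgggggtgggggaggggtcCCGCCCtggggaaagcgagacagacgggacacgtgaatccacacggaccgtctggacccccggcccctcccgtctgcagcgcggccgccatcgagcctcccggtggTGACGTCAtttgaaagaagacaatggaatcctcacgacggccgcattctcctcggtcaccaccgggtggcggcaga
The stretch of Cacna2d1 holds 6 GC boxes, some overlapping, in a sequence of 82.4% GC with 36 CpG dinucleotides. That of Scn8a has 68% GC and 30 CpG dinucleotides without a GC box, and that of Kcnk4 has 54.8% GC, 3 CpG dinucleotides and 1 GC box. The printed start of Clcn4 lies in 66% GC with 1 GC box. Scn8a and Clcn4 each have another start that is not printed. There the GC content was 53.2% with 9 CpG dinucleotides for Scn8a and 57.2% with 8 for Clcn4. Neither holds a GC box or the full cAMP response element.

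Of the 97 channel probe sets, 37 (38.1%) were above 175, the median of all deposited signals, on all 3 arrays. Over all probe sets the share was 43.9%. A further 18 channel probe sets passed on 1 or 2 arrays and 42 on none. At gene level, 29 of 76 genes had a probe set above threshold on all arrays, 15 on some and 32 on none. Taken at the brightest probe set of each gene, 29 of 76 channel genes passed, against 52.9% of all named genes. The difference was not tested. No detection calls were used, and the threshold takes their place, so a transcript below it may still have been present. The highest signals of 15 bacterial control probe sets, which mouse RNA should not bind, were 54.1, 115 and 55.6 on arrays 1, 2 and 3. By that lower bar 52 channel probe sets passed on all arrays, against 56.4% of all probe sets. Signals of different probe sets depend on their probes, so levels are not ranked between genes.

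**Figure D1:**
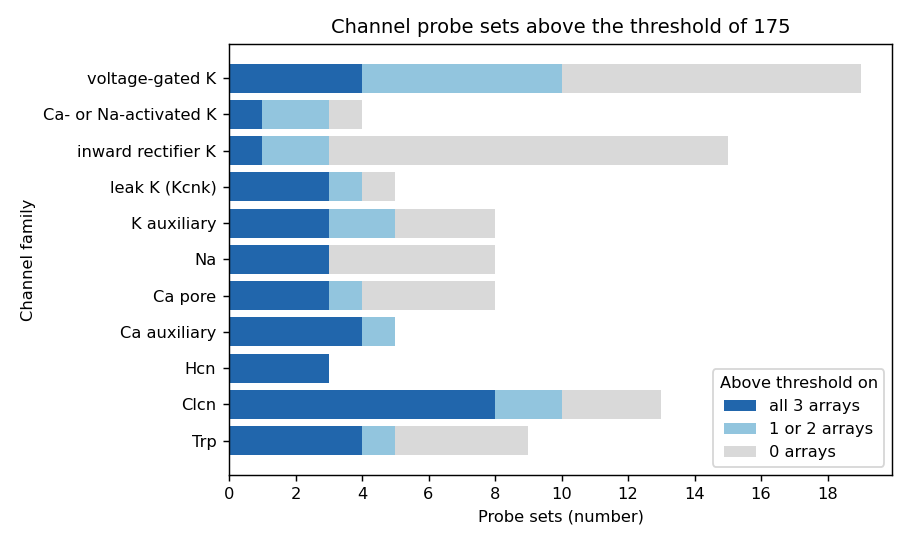
Number of channel probe sets (x axis) in each family (y axis), split by whether the deposited signal was above the threshold of 175 on all 3 arrays, on 1 or 2, or on 0. All 3 Hcn probe sets and 8 of 13 Clcn probe sets passed on every array, and 12 of 15 inward rectifier probe sets passed on none.

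Voltage-gated potassium channel genes, whose subunits open on depolarisation, had 19 probe sets of 16 genes, of which 4 were above threshold on all arrays, 6 on some and 9 on none. Kcna1, a Shaker-type subunit of axons, gave 2188, 1675 and 1441 on arrays 1, 2 and 3. Kcnh2, the ERG channel subunit, gave 447, 671 and 602. Both were above threshold throughout, with Kcna1 highest on array 1 and Kcnh2 lowest there. Kcnd2 encodes Kv4.2, the main subunit of the dendritic A-type current. Its first probe set gave 383, 491 and 962, a log2 range of 1.37, and was highest on array 3. Its second gave 218, 196 and 119.5, lowest on array 3. The direction for Kcnd2 thus depends on the probe set, and the first carries a suffix marking relaxed probe choice. Kcnq1, a subunit known best from heart and epithelia, was likewise split, at 411, 498 and 392 with 1 probe set and at 32.2, 89.7 and 75.3 with the other. Kcna2 was listed at 13.8, 144 and 180.3 and Kcna4 at 68.7, 115 and 20.0. Both probe sets of Kcna5, known from heart and vessels, were under threshold, with signals from 3.7 to 48.9. Kcnc1, the fast channel subunit of interneurons known as Kv3.1, gave 102, 40.3 and 177. The remaining genes of the family passed on 1 or 2 arrays (Kcna3, Kcnh1 and Kcns2) or on none.

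The potassium channel genes grouped by symbol as calcium- or sodium-activated had 4 probe sets. Kcnma1, the pore of the large-conductance BK channel, gave 2506.5, 2102 and 2187, all above threshold and within a log2 range of 0.26. Kcnn1, a small-conductance SK subunit that contributes to afterhyperpolarisation, gave 174.5, 343 and 614, so it was just under threshold on array 1 and well above it on array 3. Kcnn4, better known from blood and immune cells, gave 199, 136 and 251. Kcnu1, a channel of sperm, was under threshold at 69.2, 31.1 and 34.4.

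Inward rectifier genes, whose channels hold the resting potential and carry G-protein responses, were mostly under threshold, with 1 of 15 probe sets above it on all arrays and 12 on none. Kcnj9, a G-protein-gated GIRK subunit, had mean signals above threshold with both probe sets, at 279.7, 407.5 and 254 and at 324, 426 and 138. Both peaked on array 2 and had their lowest signal on array 3. Its partner subunits were under threshold on every array: Kcnj3 gave 42.6, 129 and 154, and the probe sets of Kcnj6 gave 66.0, 129.5 and 71.0 and 50.5, 95.3 and 114. Kcnj4, a strong rectifier, gave 212, 319 and 165. Both probe sets of Kcnj1, a renal channel, and of Kcnj15 were under threshold, with signals from 12.6 to 115 and from 11.3 to 71. The vascular and ATP-sensitive channel genes Kcnj8 and Kcnj11 were at 28.3, 52.5 and 86.5 and at 59.3, 96.1 and 63.8.

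Leak channel genes of the Kcnk family, which set background potassium conductance, passed on all arrays for 3 of 5 genes. Kcnk1 (TWIK-1) gave 1377, 1102 and 1014. Kcnk2 (TREK-1), opened by stretch and lipids, gave 1587, 1386 and 1624, with a log2 range of 0.28. Kcnk4 (TRAAK), a relative of Kcnk2, gave 548, 176 and 519, which set array 2 below the others. Kcnk7, a silent member of the family, was also lowest on array 2, at 358, 59.4 and 163. Their log2 ranges were 1.65 and 2.6. The array 2 signal of Kcnk7 lay below the highest bacterial control of that array, so its range rests on a background value, and it was 1.69 with the floor at the 40th percentile.

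Among auxiliary potassium channel genes, 3 of 8 probe sets passed on all arrays, all of them for beta subunits that bind Shaker-type channels. Kcnab1 gave 768, 615 and 733, and its second probe set 241, 128.5 and 229, both lowest on array 2. Kcnab2 gave 2228, 4514.5 and 1907, highest on array 2, whereas its second probe set gave 3590.1, 2740.1 and 2899, lowest on array 2. Kcnab3 gave 174.5, 243 and 171. Kcne1, a subunit gene of heart and inner ear, Kcnmb1, of smooth muscle, and Kcne1l were under threshold.

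Sodium channel probe sets covered 6 alpha subunit genes, of which 2 were above threshold on all arrays. Scn1a, the Nav1.1 subunit known from fast-spiking interneurons, gave 1910, 1191 and 2118 and, with its second probe set, 478, 422 and 664. Both had the same order, lowest on array 2 and highest on array 3. Scn8a, the Nav1.6 subunit of the axon initial segment, gave 352, 1186 and 410, highest on array 2. Its second probe set, at 4.7, 5.0 and 8.6, lay below the highest bacterial control of every array, so it does not bear on that order. Scn3a, a subunit gene of early development, Scn9a and Scn10a, of peripheral sensory neurons, and the atypical Scn7a were under threshold on every array, with the highest signal at 82.4.

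Pore-forming calcium channel genes passed on all arrays for 3 of 7. These were Cacna1b (the N-type channel of nerve terminals) at 530, 521 and 409, Cacna1c (the L-type channel that signals to the nucleus) at 437, 476 and 471, and Cacna1g (a low-voltage T-type channel) at 365, 288 and 396. Cacna1c was among the steadiest, with a log2 range of 0.15. Cacna1a, the P/Q-type channel of nerve terminals, gave 155, 329 and 76.6, above threshold on array 2 alone. Cacna1e, the R-type pore, was under threshold with both probe sets, with signals from 18 to 77.5. Cacna1s, the pore of skeletal muscle, gave 66.5, 78.6 and 26.6. The accessory subunit genes passed for 4 of 5. Cacna2d1, which aids surface delivery and binds gabapentin, gave 968, 516 and 333, highest on array 1, with a log2 range of 1.5. Its relative Cacna2d3 gave 1668, 1826 and 1629.9, the smallest log2 range of the measured channels at 0.12. Cacnb2 gave 440.5, 683 and 508. Cacng2, or stargazin, which carries AMPA receptors to synapses, gave 736, 728 and 799.8. Cacng1, of skeletal muscle, gave 126, 38.2 and 179.

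Hcn genes carry the hyperpolarisation-activated current. Hcn2 gave 1551, 1311.5 and 1990.5 and, with its second probe set, 1956, 2573 and 1829.5, and Hcn3 gave 758, 904 and 651. All 3 probe sets passed on every array, but the Hcn2 probe sets ran in opposite order, with array 2 lowest in the first and highest in the second.

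The Clcn genes encode chloride channels and the chloride and proton exchangers of endosomes and lysosomes. Of 13 probe sets 8 passed on all arrays. Clcn3, an exchanger of endosomes and synaptic vesicles, passed with all 4 probe sets, at 3625, 3771 and 4316 for the brightest and at 1395, 1129 and 996, 387, 460.2 and 407, and 321, 441.5 and 367 for the others. Clcn4 gave 2512, 2219 and 2274 and 924, 1344 and 948. Clcn7, the lysosomal exchanger, gave 639.8, 955 and 528 and 339, 203 and 194. The array that was highest differed between probe sets of each of these genes. Clcn5 gave 247, 166 and 193 and, with its second probe set, 94.2, 120.5 and 128, under threshold throughout. The plasma membrane channel gene Clcn2 was under threshold at 111, 124 and 77.9. Clcn1, the channel of skeletal muscle, stood out on array 1 at 258, against 46.5 and 32.7, with its second probe set at 17.1, 16.7 and 15.2. The 4 muscle markers were split. The creatine kinase gene Ckm and Tnnt3 were highest on array 1, at 255, 145 and 104 and at 80.3, 62.0 and 27.1, whereas Acta1 and Myl1 were lowest there, at 206, 316 and 284 and at 64.4, 178 and 174.5. Of the 4, Acta1 passed on all arrays, and their summed signal was 606, 701 and 589. The part of muscle markers in the Clcn1 signal was not tested.

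Trp genes encode cation channels opened by receptors, lipids or temperature. Of 9 probe sets 4 passed on all arrays. Trpc4, a receptor-operated channel, gave 1371, 1109.9 and 1213, and Trpc1 gave 331, 311 and 343. The second probe set of Trpc1 was under threshold at 143, 128 and 24.5. Trpv2 gave 291, 396 and 314. Trpc4ap, which the symbol rule took in, encodes a protein that associates with TRPC4 and is not a channel; it gave 3289.8, 3759 and 3827. Trpc5 and Trpc6 were under threshold on all arrays, and Trpm7, a channel fused to a kinase, gave 207.5, 127.5 and 43.1.

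**Figure D2:**
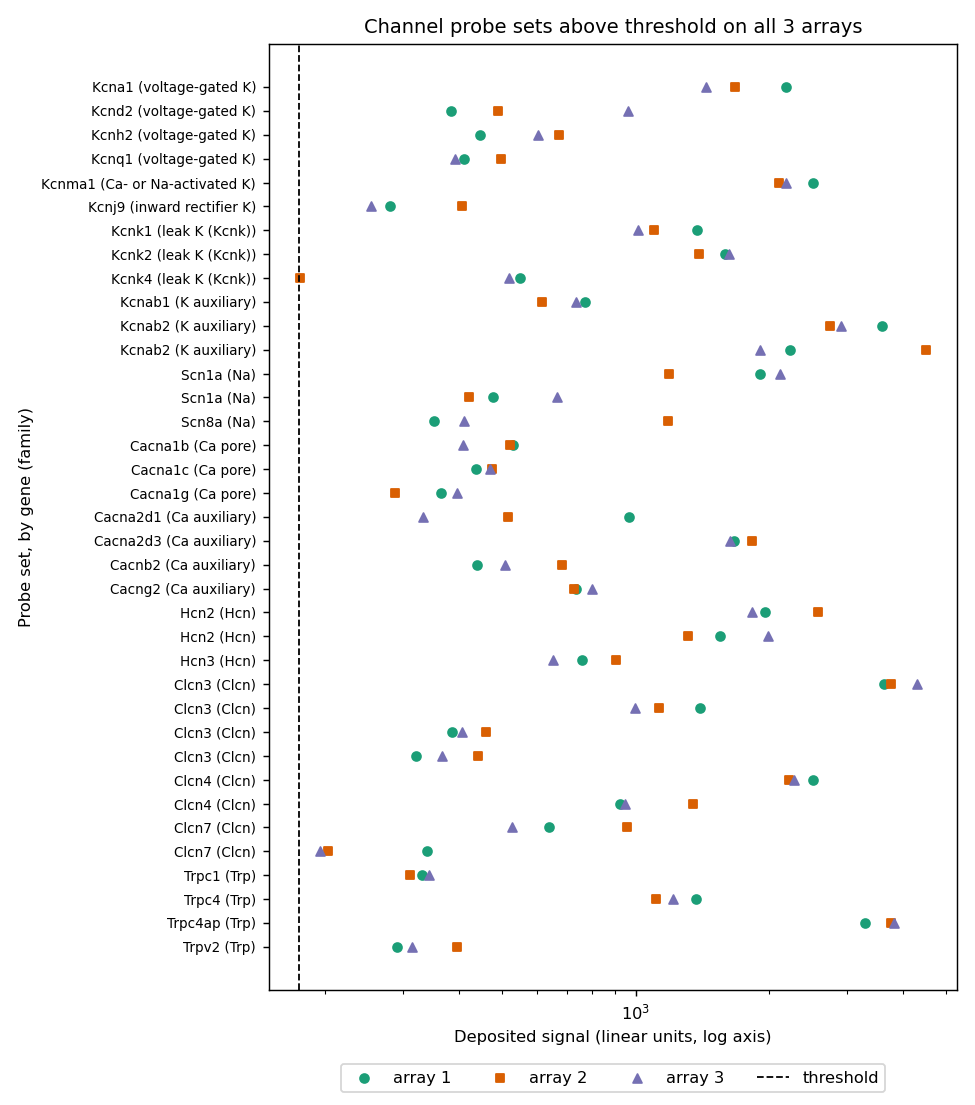
Deposited signal (x axis, log scale) of the 37 channel probe sets above threshold on all 3 arrays, 1 line per probe set (y axis) and 1 marker per array; the dashed line is the threshold of 175. Arrays lie close together for Cacna2d3 and Cacna1c and apart for Scn8a, Kcnk4, Cacna2d1 and 1 probe set each of Kcnab2 and Kcnd2.

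The spread between arrays was tested on 49 measured channel probe sets, those with a mean above 175. Of these, 9 had a highest array more than 2-fold above the lowest (18.4%), against 12.1% of all 6218 measured probe sets. The median log2 range was 0.53 for channels and 0.48 over all. In limma 0 channel probe sets passed the variance test after Benjamini-Hochberg adjustment over all measured probe sets, where 0.0161% passed. At an unadjusted p under 0.05 in limma there were 7 of 49 (14.3%), against 5.21% of all. Without array 2 there were 3 of 46, a setting in which the share over all probe sets was not computed. The 7 were Scn8a, Kcnk4, Kcnn1, Kcnab2, Cacna2d1, Kcnd2 and Kcnj9, each with 1 probe set. Scn8a came closest, with a log2 range of 1.75 and an adjusted p of 0.681 in limma, in a range from 0.0327 to 1 over its alternatives. Without array 3 its adjusted p in limma was 0.0327, and without array 2 its log2 range was 0.27. Kcnk7, Cacna1a and Kcnn1 had larger ranges, 2.6, 2.05 and 1.86, with adjusted p of 0.954, 0.971 and 0.779 in limma. The first 2 have mean signals close to the threshold. Each was above 175 on 1 array alone, and its mean passed only through that array. The filter on the mean thus admitted them through the array that also widened their range, and it was applied alike to all probe sets. With the floor raised to the 40th percentile of all values, the ranges of Kcnk7 and Cacna1a were 1.69 and 1.57. These are below the 1.75 of Scn8a and the 1.86 of Kcnn1.

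The 9 widely spread probe sets did not share a direction. Array 2 was highest for Scn8a, Kcnab2, Cacna1a and Kcnj9 and lowest for Kcnk4 and Kcnk7. Array 3 was highest for Kcnn1 and Kcnd2, and array 1 for Cacna2d1. The Gapdh ratio given above also set array 2 apart, and the summed choroid plexus and ependyma markers were highest there. Among these, Ttr gave 1333.5, 4257 and 94.2, so it differed between arrays 1 and 3 as well. Folr1, Kl, Foxj1 and Igf2 were also highest on array 2, whereas Aqp1 was lowest there, at 160, 55.2 and 127. The 4 CA3 and CA2 markers, of which 3 passed on all arrays, had summed signals of 2142, 6673 and 2709. Nnat gave 1042, 4862 and 885, and Nptx1 was also highest on array 2, at 341, 868 and 766.5. Bok and Prss23 were highest on array 3, at 657, 812 and 895.5 and at 101, 132 and 162. The 6 meningeal markers, of which 5 passed on all arrays, summed to 12710, 8532 and 7874.5, with Ptgds at 8808, 4634.5 and 4726. Mgp, Col1a1 and Col1a2 were also highest on array 1. Igfbp2 and Slc6a13 were highest on array 2, at 386, 1002 and 258 and at 218, 455 and 402. The part of these markers and ratios in the channel signals was not tested. Over all 49 measured channel probe sets, 16, 20 and 13 were highest on arrays 1, 2 and 3, against 29.3%, 33.2% and 37.5% of all measured probe sets. Likewise 15, 17 and 17 were lowest on them, against 29.3%, 42.3% and 28.4%. The median log2 shift of an array against the mean of the others was -0.06, 0.04 and -0.04 for channels, and 0.01, -0.05 and 0.05 for all measured probe sets. The shift on array 2 was -0.05 when only means above the 75th percentile were used, and that on array 1 was 0.03 without array 2.

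**Figure D3:**
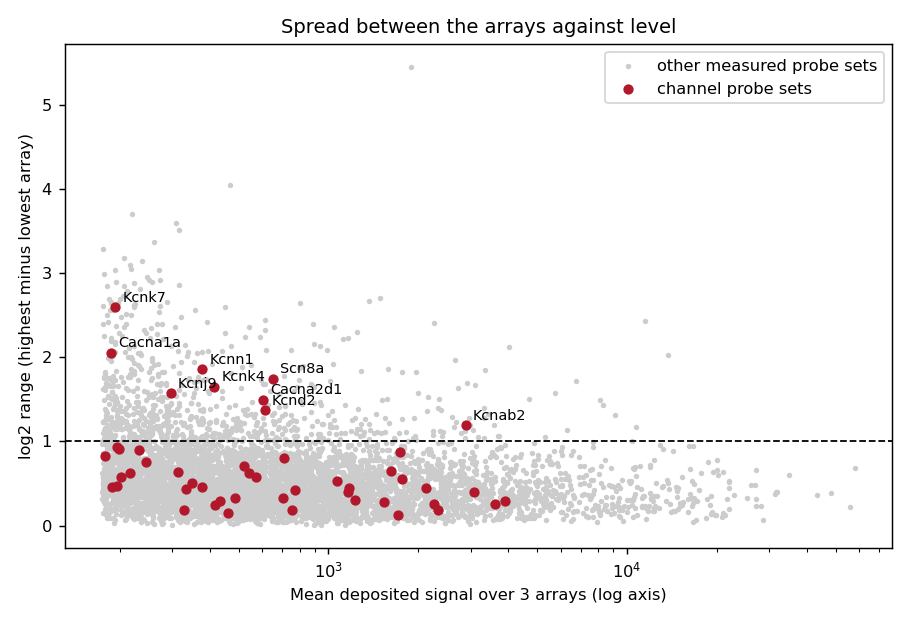
The log2 range between the highest and the lowest array (y axis) against the mean deposited signal (x axis, log scale) for 49 channel probe sets (red, named above the dashed line at 2-fold) and the other measured probe sets (grey). The 9 channels above the line lie within the cloud of other probe sets, with Kcnk7 and Cacna1a near the low end of the signal axis. The signals of these 2 lay above the floor used, and their ranges were smaller with the floor at the 40th percentile.

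Different probe sets of a gene show how far a reading rests on its probes. Of 19 channel genes with 2 or more probe sets, 11 fell into the same class on the threshold with all of them and 8 did not. Scn8a, Kcnq1 and Trpc1 had 1 probe set above threshold on all arrays and another on none. The suffix for relaxed probe choice, given above for Kcnd2, is also carried by the Kcnq1 probe set above threshold. So it is by 1 probe set each of Kcnj9, Hcn2, Clcn1 and Clcn5. In 9 genes all probe sets were measured, and in 3 of these, Scn1a, Kcnj9 and Kcnab1, all were highest on the same array. Of the 9 probe sets with more than a 2-fold difference between arrays, 4 belong to genes with a second probe set. That of Kcnj9 had the same order of arrays, and those of Kcnab2 and Kcnd2 did not. That of Scn8a was below the bacterial controls and has no order to compare.

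**Figure D4:**
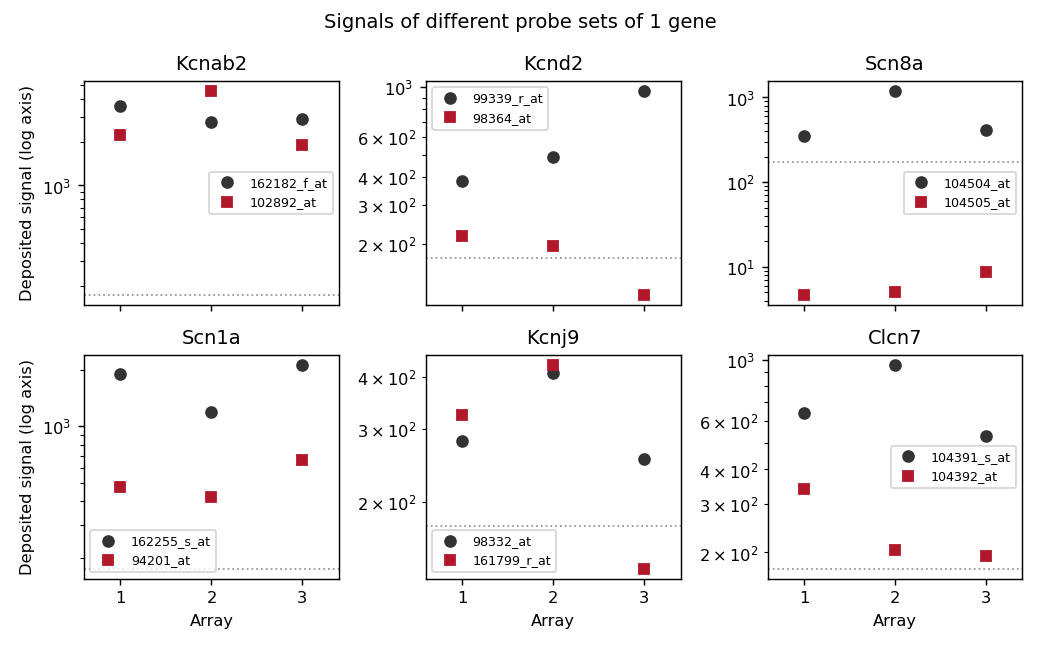
Deposited signal (y axis, log scale) on each array (x axis) for the 2 probe sets (circles and squares) of 6 channel genes; the dotted line is the threshold of 175. The probe sets of Scn1a and of Kcnj9 keep the same order of arrays, whereas those of Kcnab2 and Kcnd2 run in opposite directions and the second of Scn8a stays under 10.

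Some channel genes lie beside each other in the genome, within gaps of 500 kb in the gene table, and some of these neighbours fell on different sides of the threshold. On all arrays Scn1a was above it, while its neighbours Scn9a and Scn7a were below. Kcna1 was above it beside Kcna5 and Kcna6, which were under it. The neighbours Kcnj6 and Kcnj15, and Kcnj5 and Kcnj1, were all under it.

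Genes that anchor or modify channels were taken as a list of 36, of which 21 had a probe set. Taken at the brightest probe set of each gene, 15 were above threshold on all arrays, against 52.9% of all named genes taken likewise. Among them was Ank3, the ankyrin that gathers sodium channels at the axon initial segment, at 5605, 3250.6 and 3558. Ank3 was highest on array 1, unlike Scn8a. Dpp6, a partner of Kv4 channels, gave 708, 607 and 732, and Fgf13, which binds sodium channels, gave 217, 324 and 248.5. Dlg4, the scaffold PSD-95, gave 423, 958 and 661. The calcium release channel gene Ryr2 gave 885, 726 and 1129, and Ryr3 gave 495, 210.2 and 395. Of the 16 measured partners 2, Dlg4 and Ryr3, had more than a 2-fold difference between arrays, against 10.2% of measured genes taken likewise. In limma 0 of the partners passed the variance test over all probe sets, and 0 had an unadjusted p under 0.05, against 4.57% of those genes. Of 41 probe sets of ligand-gated receptor channels, 16 (39.0%) were above threshold on all arrays, close to the share of the ion channels. Of the 18 measured, 7 had more than a 2-fold range (38.9%), against 12.1% of all measured probe sets. Their median log2 shift on array 2 was 0.35, against -0.05 over all. The difference from the ion channels was not tested.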

How the data were processed

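Total RNA of CA1 was measured on 3 arrays of 12488 probe sets. The authors deposited a linear signal intensity for each probe set on each array. Their program, background correction and scaling were not given in the sources used here. The mean after trimming 2% at each end was 499.7 on every array. The table held 0 columns of other samples. Probe sets were named through the platform annotation and Entrez identifiers in the GRCm38.p6 gene table: outside 66 controls, 10833 had 1 symbol, 396 several and 1193 none.

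Above threshold means a deposited signal over 175, the median of all values. For the spread, arrays were rescaled by 0.991, 0.987 and 1.02 to a common median, floored at 47.5 (the 25th percentile) and log2-transformed. Probe sets with a mean above threshold were called measured. Each variance was compared with a robust intensity-dependent prior (limma 3.58.1, R 4.3.3; tails winsorised at 0.05 and 0.1), with Benjamini-Hochberg adjustment at 0.05 over 6218 probe sets. The test was checked on simulated data. The number of arrays limits all precision.

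The channels and lists were chosen with earlier results of these data known. Named genes were 32 preset hippocampal channels (22 with a probe set), the 15 largest log2 ranges and all genes with 2 or more probe sets. Others named, and the promoter stretches, were chosen after their values were seen. Marker and partner genes were taken at their brightest probe set.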

Additional observations from a re-analysis of the deposited data

How the results depend on the processing

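The count of 37 channel probe sets above threshold on all arrays was 59 with the threshold at the 25th percentile of all values and 19 at the 75th. It was 36 after quantile normalization or cyclic loess, and 52 against the bacterial controls, an alternative chosen after seeing the data. Leaving out an array gave 39 to 41. The 9 of 49 probe sets with more than a 2-fold range became 24 of 73 at the lower threshold, 4 of 24 at the higher and 24 of 97 with none. Without array 1, 2 or 3 the count was 6, of 47, 46 and 49. Shares over all probe sets were not computed in these settings. The count past the limma variance test was 0 in each setting except without array 3, where it was 1, Scn8a, so leaving out an array gave 0 to 1. For array 2 the median log2 shift of 0.0403 became 0.161 at the lower threshold and -0.0467 at the higher. Leaving out an array gave shifts of -0.0544 to 0.0251 on array 1, 0.0544 to 0.106 on array 2 and -0.106 to -0.0251 on array 3. The cause of these changes was not tested, beyond the numbers of probe sets that each threshold admits. No paired analysis was possible because there is 1 group. Signals near the bacterial controls limit what can be said of the 42 probe sets under threshold.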
